A study of Mus musculus with 8 samples.

Results

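Trp53, which encodes the transcription factor p53, and 9 of its targets were followed in cultured satellite cells, the resident stem cells of mouse muscle. The genes were taken by symbol from the table of exon counts: Trp53, the feedback genes Mdm2 and Ccng1, the apoptosis genes Pmaip1, Bbc3, Bax and Eda2r, and the arrest and stress genes Zmat3, Phlda3 and Trp53inp1. All 10 were found among the 39017 genes of the table, and all 10 passed the filter on low counts, as did 15816 genes in all.

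Cells came from the diaphragm and abdominal muscle of adult Pax3GFP/+ mice, in which 1 Pax3 allele carries a GFP reporter, in both groups alike. Plates of 35 mm received 7500 cells each and were kept for 4 days in 10 µM sal003, an inhibitor of eIF2α dephosphorylation (4 libraries), or in DMSO, the vehicle (4 libraries); the treatment protocol gives the sal003 dose in mM, in place of the µM of the sample attributes and design text used here. Whether the libraries of a group came from separate mice or cultures is not stated, so the p-values measure the spread between these libraries only.

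p53 is held at a low level in unstressed cells by the ubiquitin ligase MDM2, which marks the protein for degradation, and is stabilised by DNA damage and other stress. It binds DNA as a tetramer and switches on genes of cell cycle arrest, apoptosis and its own feedback. Much of its control is exerted on the protein, which RNA sequencing does not measure. In muscle precursors several of its targets, among them the cell cycle inhibitor p21, are also switched on during differentiation.

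Setting sal003 against DMSO asks how blocking eIF2α dephosphorylation in culture changes the transcripts of the cells. Transcripts of 8 of the 9 targets fell in sal003, while the Trp53 transcript rose. Falls ranged from a log2 fold change of -2.44 for the receptor gene Eda2r to -0.66 for Mdm2. Bax, the pore-forming effector of apoptosis, was the target that did not pass the test. Over all tested genes 12.2% were called lower and 10.6% higher at the same threshold, an edgeR quasi-likelihood p below 0.05 after Benjamini-Hochberg adjustment over all tested genes. The median log2 fold change was -1.12 over the 10 genes and -0.0034 over all tested genes. In all 8 targets that fell, each sal003 library lay below each DMSO library, which held for 13.7% of tested genes in this direction and for 26.8% in either. A log2 fold change of -1 or lower was reached by 5 of the 10 genes, against 5.46% of tested genes that were called with such a fall.

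**Figure D1:**
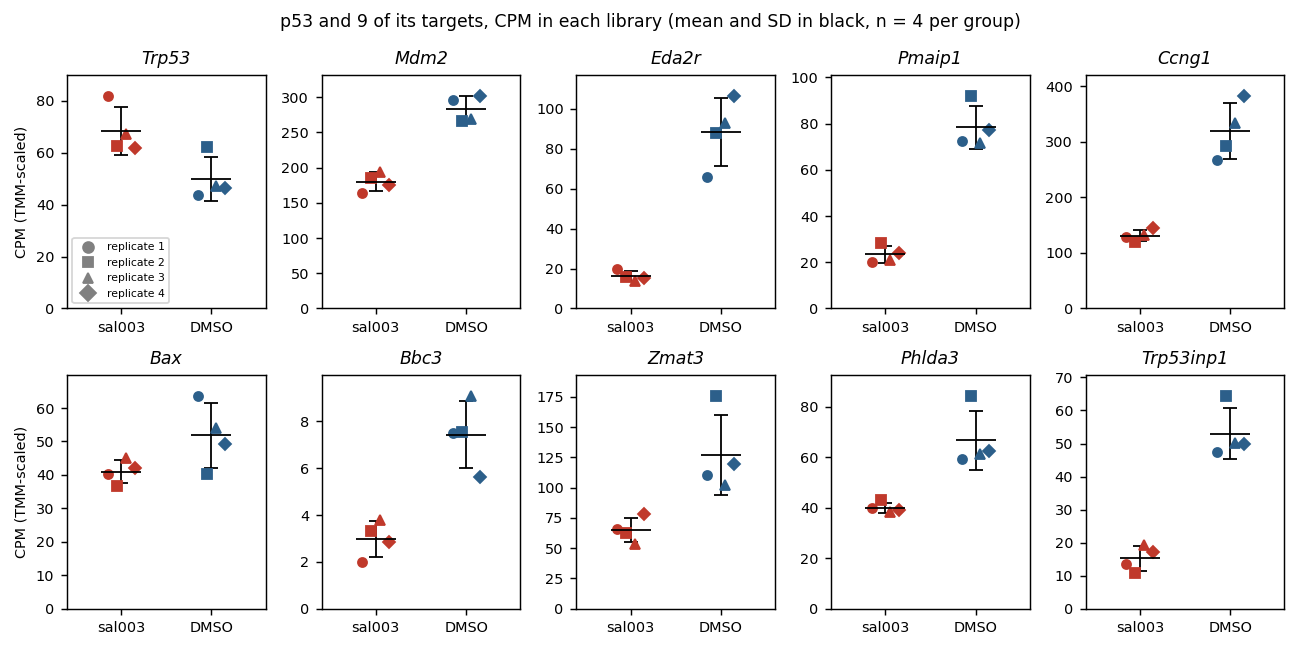
CPM (counts scaled to library size, with TMM factors; linear axis from 0) of Trp53 and its 9 targets in each library, with sal003 in red, DMSO in blue, a marker shape per replicate number, and the mean and SD in black (n = 4 per group). The groups are apart in every panel but those of Trp53 and Bax, where DMSO replicate 2 lies among the sal003 libraries.

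The libraries held between 32753929 and 40234107 counts. DMSO replicate 2 stood apart: it had counts in 14437 genes, against at least 16561 in each other library, and its Spearman correlation with the other DMSO libraries across tested genes was at most 0.949, while the other DMSO libraries reached 0.977 to 0.979 with each other. Calls and list counts that moved by over 1.5 times without it are given both ways. Markers of satellite cells and myoblasts were present, with the satellite cell marker Pax7 at 97.2 ± 2.54 CPM in sal003 and 72.1 ± 6.74 CPM in DMSO (SD, n = 4). Of the 9 fibro-adipogenic markers 3 (Dcn, Lum and Dpt) had no count in any library, but Col1a2 and Pdgfra had counts in every one, and the list summed to 9.42 to 14.4 CPM in sal003 and 14.9 to 22.6 CPM in DMSO. Of the 9 immune markers 4 (Ptprc, Adgre1, Cd3e and Lyz2) had none, while Cd68 was counted in every library, and the sum was 2.16 to 4.56 CPM in sal003 and 2.84 to 5.82 CPM in DMSO. Genes of differentiating myocytes moved with the condition: all 22 of the 22 on the list fell, and their summed level ran from 19100 to 22020 CPM in sal003 and from 64370 to 93810 CPM in DMSO. Of the 12 satellite cell and myoblast markers 2 rose (Pax7 and Met) and 4 fell (Cdh15, Itga7, Des and Heyl). Their sum ran from 2891 to 3174 CPM in sal003 and from 4484 to 5155 CPM in DMSO. Most of that difference was Des, with means of 1171 CPM in sal003 and 2941 CPM in DMSO, so the sum does not describe the list as a whole. The smooth muscle and pericyte list had 3 of 5 tested genes lower (Cspg4, Abcc9 and Mcam), with sums of 177 to 212 CPM in sal003 and 296 to 369 CPM in DMSO. Cspg4 made up most of it, with means of 149 CPM in sal003 and 197 CPM in DMSO. Pdgfrb (3.57 and 6.74 CPM) was not called. Rgs5 (0.256 and 0.704 CPM), Myh11 (0.552 and 0.804 CPM) and Kcnj8 (0.0593 and 0 CPM) were near 0. The part of these shifts in the values of the p53 targets was not tested. In such bulk libraries fewer cells of a type and less RNA per cell cannot be told apart.

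The promoters of the genes were searched for the p53 decamer, the unit that occurs as a pair in a full p53 response element. RefSeq promoter windows of GRCm38.p6, from 250 bases before to 50 bases after a gene's start, were at hand for 7 of the 10 genes, and Bax, Mdm2, Ccng1 and Trp53 hold an exact decamer there. The decamer reads the same on both strands, and 8.36% of all 32851 windows contain it. In Bax and Ccng1 another decamer completes a full element, with 2 mismatches in all and a spacer of 5 bases in Bax, and with 1 mismatch and no spacer in Ccng1. Full elements with up to 2 mismatches and a spacer of up to 13 bases are in 4.09% of windows. The stretches around the matches are shown because they hold the only matches found in these windows, with decamers in capitals, 5′ to 3′ on the gene's strand.

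Bax, minus strand, chr7:45467070-45467134, in an intron of the annotated gene Gm45808, first decamer 216 bases before the Bax start: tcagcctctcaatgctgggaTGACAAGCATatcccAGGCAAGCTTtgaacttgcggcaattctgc
Ccng1, minus strand, chr11:40755442-40755501, first decamer 195 bases before the start: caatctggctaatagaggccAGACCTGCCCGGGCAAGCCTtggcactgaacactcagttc
Mdm2, minus strand, chr10:117710915-117710964, decamer 186 bases before the start: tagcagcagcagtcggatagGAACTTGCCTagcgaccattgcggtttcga
Trp53, plus strand, chr11:69580264-69580313, decamer 75 bases before the start: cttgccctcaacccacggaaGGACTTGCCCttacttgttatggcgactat

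These 4 genes differ in how their transcripts moved: Ccng1 and Mdm2 fell, Trp53 rose and Bax did not pass. Phlda3, Bbc3 and Eda2r have no exact decamer in their windows, and all 3 fell. Such a match is a description of letters, not a bound site. Pmaip1, Zmat3 and Trp53inp1 were not searched.

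Trp53 itself (ENSMUSG00000059552, chromosome 11, 69580359 to 69591873, plus strand of mm10) had 81.9, 62.5, 67.1 and 61.9 CPM in sal003 replicates 1 to 4, and 43.55, 62.25, 47.1 and 46.4 CPM in DMSO replicates 1 to 4. The other DMSO libraries lay below every sal003 library, but DMSO replicate 2 lay just above the lowest sal003 library. The mean was 68.3 ± 9.32 CPM in sal003 and 49.8 ± 8.42 CPM in DMSO (SD, n = 4), so that Trp53 rose by 0.46 ± 0.14 on the log2 scale (SE; edgeR adjusted p = 0.0271). The call depended on single libraries: leaving out each of the 8 in turn, it held 3 times. The edgeR adjusted p came to 0.120 when sal003 replicate 1 was dropped, 0.0575 without sal003 replicate 3, 0.0736 without DMSO replicate 1, 0.0637 without DMSO replicate 3 and 0.0585 without DMSO replicate 4. Without DMSO replicate 2 the log2 fold change was 0.59 (adjusted p = 0.000655). A processed pseudogene, Trp53-ps, carries sequence of the gene and had 7 to 128 counts per library, between 0.334% and 9.39% of the Trp53 count, so reads shared by the pair leave some uncertainty.

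Mdm2, the ligase that p53 induces and that degrades it, had 163.5, 186, 194 and 175 CPM in sal003 replicates 1 to 4, and 297, 266, 269.5 and 302 CPM in DMSO replicates 1 to 4 (ENSMUSG00000020184, chromosome 10, 117688875 to 117710758, minus strand). The groups were apart with little spread in either, and Mdm2 fell by 0.66 ± 0.09 on the log2 scale (SE; edgeR adjusted p = 4.04e-05). Ccng1, which encodes cyclin G1, a partner of a phosphatase that acts on MDM2, had 128, 119.5, 132 and 144.5 CPM in sal003 and 267.5, 293, 334 and 383 CPM in DMSO (ENSMUSG00000020326, chromosome 11, 40748552 to 40755311, minus strand). Every DMSO library was far above the sal003 libraries, and the fall of 1.28 ± 0.11 on the log2 scale (SE; edgeR adjusted p = 4.45e-07) was larger than that of Mdm2.

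Among the apoptosis genes the receptor and the BH3-only genes fell, while the effector Bax did not pass. Eda2r, a receptor of the TNF family for the ectodysplasin A2 ligand, had 19.6, 15.9, 13.96 and 15.5 CPM in sal003 replicates 1 to 4, and 65.8, 88.0, 92.9 and 106.5 CPM in DMSO replicates 1 to 4 (ENSMUSG00000034457, chromosome X, 97333840 to 97377216, minus strand). Its sal003 mean was 0.184 times the DMSO mean in the fit, a fall of 2.44 ± 0.16 on the log2 scale (SE; edgeR adjusted p = 2.58e-08). Only 344 of the 15816 tested genes (2.17%) had a lower log2 fold change than Eda2r. Among receptors, Edar, the related receptor for the A1 form of ectodysplasin, had no count in 7 of the 8 libraries and was not tested.

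Pmaip1, which encodes NOXA, a BH3-only protein that binds MCL1, had 20.3, 28.2, 21.1 and 24.2 CPM in sal003, and 72.4, 92.0, 71.6 and 77.3 CPM in DMSO (ENSMUSG00000024521, chromosome 18, 66458533 to 66465565, plus strand). The lowest DMSO library was above the highest sal003 library by a wide margin, and Pmaip1 fell by 1.74 ± 0.14 on the log2 scale (SE; edgeR adjusted p = 2.58e-07). Bbc3, which encodes PUMA, the other BH3-only target, had the lowest level per kilobase of exon of the 10 genes in both groups. It had 1.99, 3.30, 3.81 and 2.83 CPM in sal003, resting on 81 to 152 counts per library, and 7.51, 7.53, 9.08 and 5.63 CPM in DMSO, on 214 to 309 counts (ENSMUSG00000002083, chromosome 7, 16308393 to 16318205, plus strand). The groups did not overlap, but the log2 fold change of -1.32 ± 0.37 (SE; edgeR adjusted p = 0.0155) was the least precise of the 10, and the call was lost when sal003 replicate 1 (adjusted p = 0.0535) or DMSO replicate 3 (adjusted p = 0.0639) was dropped.

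Bax, whose protein opens pores in the outer mitochondrial membrane, had 40.15, 36.7, 45.2 and 42.0 CPM in sal003 replicates 1 to 4, and 63.6, 40.4, 54.15 and 49.2 CPM in DMSO replicates 1 to 4 (ENSMUSG00000003873, chromosome 7, 45461697 to 45466898, minus strand). The groups overlapped through DMSO replicate 2, and the log2 fold change of -0.34 ± 0.15 (SE) did not pass (edgeR adjusted p = 0.122). Without DMSO replicate 2 it was -0.43 and passed (adjusted p = 0.0141), and it passed with limma-voom over all libraries as well (adjusted p = 0.0183). Bax shares 192 exonic bases with Gm45808 on the same strand, which leaves its count uncertain to that extent.

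The arrest and stress genes all fell. Trp53inp1, a stress-induced nuclear protein that promotes p53 activity and autophagy, had 13.6, 10.7, 19.3 and 17.3 CPM in sal003 replicates 1 to 4, and 47.5, 64.4, 50.3 and 49.9 CPM in DMSO replicates 1 to 4 (ENSMUSG00000028211, chromosome 4, 11156431 to 11174379, plus strand). Its log2 fold change of -1.80 ± 0.19 (SE; edgeR adjusted p = 3.72e-06) was next in size to that of Eda2r. Zmat3, an RNA-binding zinc finger protein, had 66.2, 62.2, 53.8 and 78.3 CPM in sal003, and 110.3, 176, 102.5 and 119.6 CPM in DMSO (ENSMUSG00000027663, chromosome 3, 32334792 to 32366014, minus strand), a fall of 0.96 ± 0.16 on the log2 scale (SE; edgeR adjusted p = 0.000485). Phlda3, a PH-domain protein that competes with the kinase AKT at membranes, had 40.0, 42.9, 38.2 and 39.0 CPM in sal003, and 59.3, 84.2, 61.1 and 62.6 CPM in DMSO (ENSMUSG00000041801, chromosome 1, 135766119 to 135769136, plus strand), a fall of 0.74 ± 0.13 on the log2 scale (SE; edgeR adjusted p = 0.000674). In each of these 3 genes DMSO replicate 2 was the highest library. Without it the log2 fold changes were -1.68 for Trp53inp1, -0.76 for Zmat3 and -0.60 for Phlda3, and all 3 calls held.

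**Figure D2:**
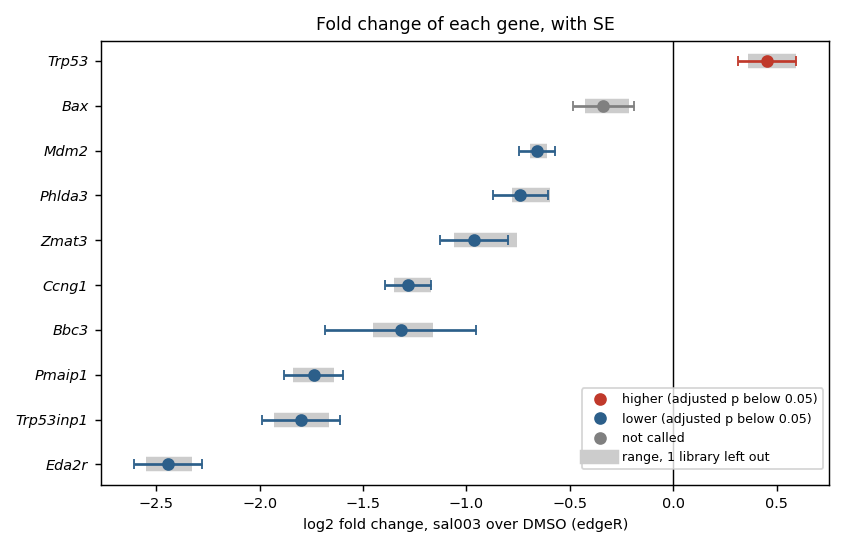
Log2 fold change of sal003 over DMSO for each gene from the edgeR fit (points, with SE as bars), and the range when each of the 8 libraries was dropped in turn (grey bands). Trp53 lies above 0 at 0.46, the 8 called targets lie between -2.44 and -0.66, and Bax, in grey, lies between them and 0.

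The order of the 10 genes by level differed between the groups, as read per kilobase of exon (RPKM, mean ± SD, n = 4). In sal003 the feedback genes led, with Ccng1 at 37.3 ± 2.94 and Mdm2 at 35.4 ± 2.62 RPKM. Bax at 26.0 ± 2.25, Phlda3 at 25.7 ± 1.31 and Trp53 at 16.9 ± 2.31 RPKM followed. The genes of cell death and stress signalling other than Bax and Phlda3 stood below Trp53. Pmaip1 had 8.58 ± 1.31 and Zmat3 5.69 ± 0.892 RPKM, while Eda2r at 2.75 ± 0.403, Trp53inp1 at 2.35 ± 0.592 and Bbc3 at 1.404 ± 0.365 RPKM were lowest. In DMSO Ccng1, at 90.9 ± 14.4 RPKM, stood apart above Mdm2 at 55.8 ± 3.63 RPKM. Phlda3 at 42.9 ± 7.50, Bax at 32.9 ± 6.15 and Pmaip1 at 28.7 ± 3.47 RPKM came next. By their means Pmaip1 and Eda2r stood above Trp53 here, and below it in sal003. Eda2r had 15.0 ± 2.87, Trp53 12.3 ± 2.08, Zmat3 11.1 ± 2.90, Trp53inp1 8.18 ± 1.19 and Bbc3 3.50 ± 0.665 RPKM. Trp53 thus stood at place 5 in sal003 and at place 7 in DMSO. Neighbours whose libraries overlapped in sal003 were Ccng1 with Mdm2, Bax with Phlda3, Eda2r with Trp53inp1, and Trp53inp1 with Bbc3. In DMSO they were Mdm2 with Phlda3, Phlda3 with Bax, Bax with Pmaip1, Eda2r with Trp53, Trp53 with Zmat3, and Zmat3 with Trp53inp1.

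Counts of a target over those of Trp53 in the same library do not depend on how libraries are scaled. The denominator is shared, and Trp53 rose by 0.46 on the log2 scale, so an unchanged gene would also have a lower ratio. How many of all tested genes have such a ratio, with or without overlap, was not counted. All 9 ratios were lower in sal003, and 8 of them did not overlap between the groups. They belong to the 8 targets whose CPM also did not overlap, as in 13.7% of tested genes in this direction. The ratios are thus not a separate result about these targets. Each of those 8 ratios had an exact permutation p of 0.0286 (two-sided), the smallest that 4 against 4 libraries allow, and of 0.0321 after adjustment over the 9 ratios. The log2 ratio of Eda2r to Trp53 counts was -2.06, -1.98, -2.26 and -1.996 in sal003 replicates 1 to 4, and 0.60, 0.50, 0.98 and 1.20 in DMSO replicates 1 to 4. Eda2r thus had fewer counts than Trp53 in every sal003 library and more in every DMSO library. For Trp53inp1 the log2 ratio was -2.59, -2.55, -1.80 and -1.84 in sal003, and 0.12, 0.05, 0.09 and 0.10 in DMSO, where it was nearly constant. For Phlda3 it was -1.03, -0.54, -0.81 and -0.67 in sal003, and likewise narrow in DMSO at 0.45, 0.44, 0.38 and 0.43. DMSO replicate 2, the DMSO library with the highest CPM of Trp53, Trp53inp1 and Phlda3, did not stand apart in these 2 ratios. On the log2 scale the differences between groups ran from -2.89 for Eda2r to -1.12 for Mdm2 among the 8. The ratio of Bax to Trp53 differed by -0.78 with overlap (exact permutation p = 0.0857, two-sided, also after adjustment).

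**Figure D3:**
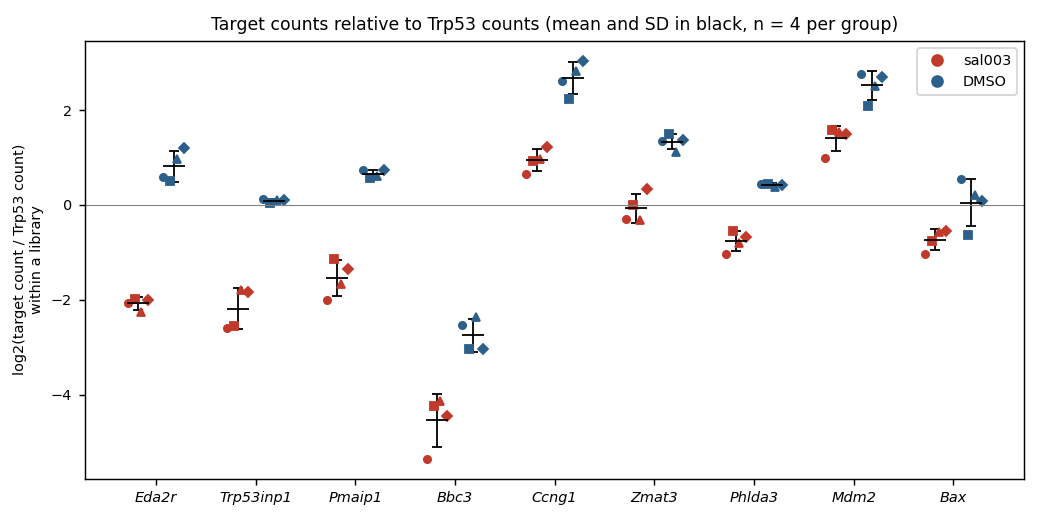
Log2 of each target's count over the Trp53 count within a library, with sal003 in red left of DMSO in blue, a marker shape per replicate number as in the plot of CPM, and the mean and SD in black (n = 4 per group). The groups are apart for every target but Bax, and the 4 DMSO values of Trp53inp1 and Phlda3 almost coincide.

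Trp53 and the targets other than Zmat3 were also set against related genes within the library, in 10 pairs. The adjustment covered all 10, among them Eda2r with Edar, a gene at 0 in nearly every library. That pair also had an exact permutation p of 0.0286 (two-sided), which lowers the adjusted p of the others. The adjusted 0.0476 given below is under 0.05 only because that pair is counted. Without it, the same adjustment would leave these ratios above 0.05. The ratio of Mdm2 to Mdm4, a relative that inhibits p53 without the same ligase activity, was lower in sal003 by 1.01 on the log2 scale (exact permutation p = 0.0286, two-sided, and 0.0476 adjusted over the 10 pairs). Mdm4 rose, with 97.8 ± 5.47 CPM in sal003 and 76.7 ± 7.20 CPM in DMSO (SD, n = 4), a difference of 0.35 ± 0.10 on the log2 scale (SE; edgeR adjusted p = 0.0215). That call was lost without sal003 replicate 1 (adjusted p = 0.0643), without sal003 replicate 2 (0.07555) and without DMSO replicate 1 (0.0510). The ratio of Pmaip1 to Mcl1, the survival protein that NOXA binds, differed by -1.76, with Mcl1 at 114 ± 5.61 CPM in sal003 and 114 ± 18.7 CPM in DMSO (SD, n = 4; edgeR adjusted p = 0.983). The ratio of Bbc3 to Bcl2l11, the BH3-only gene of BIM, differed by -1.46, and that of Ccng1 to Ccng2, the gene of cyclin G2, by -1.14. Each of these 3 ratios had an exact permutation p of 0.0286 (two-sided; 0.0476 adjusted), with no overlap.

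In 4 further pairs the ratios overlapped between the groups. Trp53inp2, the relative of Trp53inp1, fell as well, by 1.35 ± 0.12 on the log2 scale (SE; edgeR adjusted p = 3.91e-07), and the ratio of the pair overlapped between groups (difference -0.47, exact permutation p = 0.114, two-sided). Phlda1 fell by 0.44 ± 0.10 (edgeR adjusted p = 0.00545), and the ratio of Phlda3 to it differed by -0.28 (exact permutation p = 0.0857, adjusted 0.0952). The ratio of Bax to Bak1, the other pore-forming effector, differed by -0.47 (exact permutation p = 0.0857, adjusted 0.0952) and that of Bax to the survival gene Bcl2 by -1.999 (exact permutation p = 0.0571, adjusted 0.0816). Bcl2 was scarce, with 7.30, 5.03, 4.84 and 5.66 CPM in sal003, and 1.09, 4.33, 1.64 and 1.21 CPM in DMSO. Its groups did not overlap, but DMSO replicate 2 came close to sal003, and the log2 fold change of 1.46 ± 0.52 (SE) had an edgeR adjusted p of 0.0543. Without DMSO replicate 2 it was 2.13 (adjusted p = 0.000428), and over all libraries Bcl2 passed with DESeq2 (adjusted p = 0.0248), with limma-voom (0.00849) and with halved counts in edgeR (0.0479). Trp63 fell, with 1.13, 0.3085, 3.61 and 1.08 CPM in sal003, and 7.09, 19.2, 13.05 and 12.7 CPM in DMSO (log2 fold change -3.08 ± 0.60, edgeR adjusted p = 0.001995), and the log2 ratio of Trp53 to this family member was higher in sal003 by 3.94 with no overlap (exact permutation p = 0.0286, two-sided, 0.0476 adjusted). For Eda2r with Edar no ratio is given, since Edar was at 0 in nearly every library.

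The wider p53 pathway was read from 5 lists. Of 42 further p53 targets 39 were tested, 18 fell and 0 rose by edgeR, against 12.2% and 10.6% of all tested genes. At an unadjusted p below 0.05 there was 1 higher gene, and DESeq2 and limma-voom called 0 higher, but edgeR called 1 higher without DMSO replicate 1. The median log2 fold change of the list was -0.45. Cdkn1a, the gene of p21, stood at 122 ± 15.7 CPM in sal003 and 438.5 ± 31.7 CPM in DMSO (SD, n = 4), a fall of 1.85 ± 0.10 on the log2 scale (SE; edgeR adjusted p = 4.58e-09). Trp53cor1, the long noncoding RNA upstream of Cdkn1a known as lincRNA-p21, fell to 1.90 ± 0.604 CPM in sal003, against 17.1 ± 3.85 CPM in DMSO. The adenylate kinase Ak1 (log2 fold change -2.04), the stress sensor Gadd45a (-1.43), the sulfatase Sulf2 (-2.32) and the kinase Plk2 (-1.16) completed the 6 with the lowest p. In all, 21 of the 39 did not pass.

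Of 34 tested regulators of p53, 10 rose (29.4%, against 10.6% of all tested genes) and 4 fell (11.8%, near the 12.2% of all tested genes), with a median log2 fold change of 0.23. The damage kinases Atm (0.69 ± 0.12) and Atr (0.77 ± 0.15), the checkpoint kinase Chek1 (1.25 ± 0.21), the nucleolar protein Npm1 (1.13 ± 0.11) and the methyltransferase Kmt5a (0.62 ± 0.08) rose, while the methyltransferase Setd7 fell (-0.92 ± 0.08; SE, edgeR adjusted p between 8.38e-07 and 0.00148 for these 6).

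The shares called among further BCL2 family genes and caspases are to be read against the 10.6% higher and 12.2% lower of all tested genes. Of 14 tested BCL2 family genes 1 rose by edgeR (7.14%, near that share), the BH3-only gene Bid (log2 fold change 0.64 ± 0.16, edgeR adjusted p = 0.009325), while DESeq2 called 2 higher and limma-voom 3. By edgeR 0 fell, with 3 lower at an unadjusted p below 0.05, 0 by DESeq2 and 2 by limma-voom. Without DMSO replicate 2, 3 rose and 2 fell. Of 23 caspases and their partners 6 rose (26.1%), but 2 did without sal003 replicate 1 and 3 without sal003 replicate 2 or DMSO replicate 3. The 1 that fell (4.35%; 2 without DMSO replicate 2) was Diablo (-0.53 ± 0.15, edgeR adjusted p = 0.0153, lost without sal003 replicate 4 at 0.0604 and without DMSO replicate 3 at 0.0576). Ripk1 (0.93 ± 0.14) and Birc5 (0.78 ± 0.13) had the lowest p and held in every fit that left out 1 library. Other calls rested on single libraries. That on Cycs was lost when sal003 replicate 1 or 3 was dropped (edgeR adjusted p up to 0.0868), and that on Casp8 when sal003 replicate 1 or 2 or DMSO replicate 3 was dropped (up to 0.124). That on the caspase inhibitor Xiap held only when DMSO replicate 2 was dropped and otherwise reached an edgeR adjusted p of up to 0.123.

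Cell cycle genes that p53 lowers through p21 and the DREAM complex mostly rose: of 15 tested, 13 rose and 0 fell by edgeR, DESeq2 or limma-voom, with 0 lower at an unadjusted p below 0.05, against 10.6% higher and 12.2% lower of all tested genes. Their median log2 fold change was 0.94. They included the transcription factor Mybl2 (1.48 ± 0.12), the topoisomerase Top2a (1.16 ± 0.10), cyclin A2, Ccna2 (1.02 ± 0.09), and the kinase Cdk1 (1.03 ± 0.10).

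**Figure D4:**
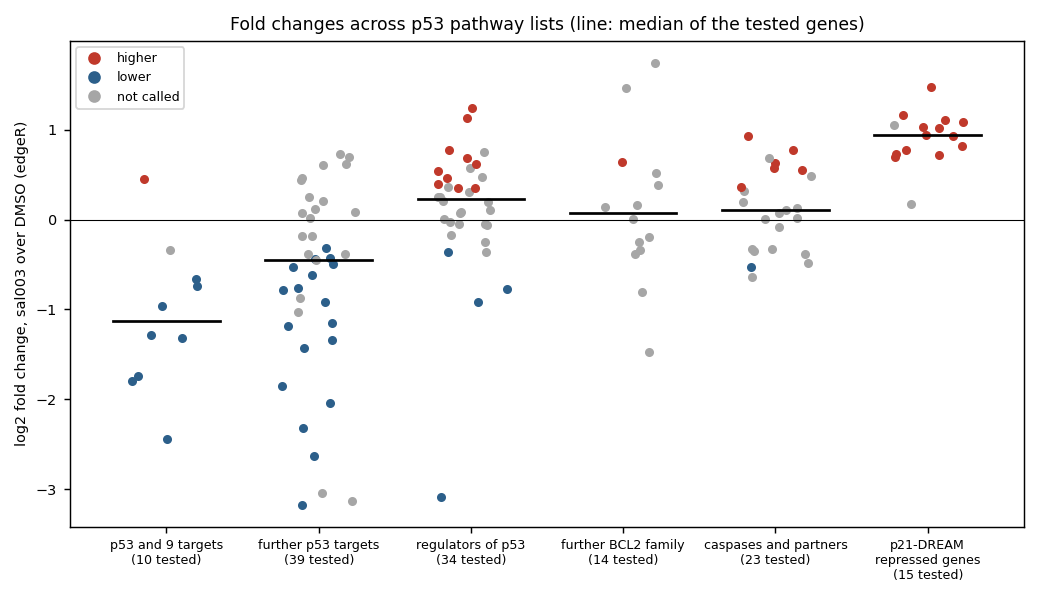
Log2 fold change of sal003 over DMSO (edgeR) for each tested gene of Trp53 with its 9 targets and of 5 pathway lists, coloured by call, with a line at the median of the tested genes. Medians run from -1.12 for Trp53 with its targets and -0.45 for the further targets to 0.94 for the genes lowered through p21 and DREAM.

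Genes outside the set whose pattern was most like the median of the 10 were sought by the root mean square distance of centred log2 CPM over the 8 libraries. They were Fads3, Ncam1, Chrnd, 1110002E22Rik and Itm2a, at distances of 0.0279 to 0.0718. Fads3 had 101, 104, 105 and 109 CPM in sal003, and 206, 227, 206 and 196 CPM in DMSO. Among the 10 genes Phlda3 was nearest to their median, at 0.169 (rank 179 among all tested genes), and Trp53 farthest, at 0.743 (rank 9668). Many genes outside the set were thus nearer to this median than any of the 10. Without DMSO replicate 2, of the 10, Mdm2 was nearest, at 0.137 (rank 143), and Eda2r farthest, at 0.776 (rank 12641). Of the 5 similar genes 1, Fads3, was then again among the nearest 5.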

How the data were processed

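RNA was depleted of ribosomal and mitochondrial sequence and made into stranded libraries, per the labels' protocols. The authors deposited raw counts per gene over exons. Trimmomatic 0.32, STAR 2.3.0e, featureCounts 1.4.4 and mm10 are named in the submitters' processing notes; how strand and multi-mapping were set is not given in the sources used. Genes past edgeR's filter on low counts (minimum 10 per library, 15 in total) were scaled by TMM and tested, two-sided, with edgeR 4.0.16 (robust quasi-likelihood, Benjamini-Hochberg adjustment over all tested genes, threshold 0.05). SE is the log2 fold change over the square root of F. Ratios used counts with 0.5 added. Exon lengths and coordinates are from GENCODE M21. The fit was tested on simulated data. The 10 genes, the pathway and marker lists and the pairs were chosen with earlier results of these data known. Named genes are the 10, their partners, up to 6 called genes per pathway list by p, the 5 most similar genes, and markers. Alternatives were other scalings, filters, DESeq2 1.42.0, limma-voom (limma 3.58.1), halved counts, a replicate block and each library left out.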

Additional observations from a re-analysis of the deposited data

Results flagged for a closer look

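Of 36 groups of 4 libraries examined, 3 had a library whose gap to its nearest neighbour took up an unusually large part of the range, and chance alone marks a small part of such groups. Phlda3 in DMSO replicate 2 stood at 84.2 CPM, above the other DMSO libraries at 59.3 to 62.6 CPM. Trp53inp1 in DMSO replicate 2 stood at 64.4 CPM, above the other DMSO libraries at 47.5 to 50.3 CPM. The summed erythroid markers were at 0.235 CPM in DMSO replicate 3, from 8 counts of Hba-a1, and at 0 in the other DMSO libraries. With the others at 0 the gap takes up the whole range whatever the value, so this flag is at the floor.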

How the results depend on the processing

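The log2 fold changes of the 10 genes kept their direction in every alternative run, and the calls on Mdm2, Eda2r, Pmaip1, Ccng1, Zmat3, Phlda3 and Trp53inp1 held in all 18. At an adjusted p of 0.01 the genes called numbered 2308, of which 984 were higher, and 0 of the 10 genes rose (edgeR), since Trp53 was lost, as was Bbc3. With 1 library left out between 0 and 1 of the 10 rose. Bbc3 could not be tested with the filter of 10 CPM. All 171 alternative values of the ratios kept their direction, a number that includes the ratio of Eda2r to Edar, which is not given above. The replicate numbers did not pair the libraries: same-numbered deviations correlated at -0.01 to 0.07. With the replicate block 3430 genes were called, and 1 of the 10 genes rose and 8 fell, as without it. Among partners that did not pass, signs turned: Bcl2l11 was -0.0071 without DMSO replicate 2 and up to 0.322 without sal003 replicate 4, Mcl1 was -0.0048 with upper-quartile scaling, -0.034 with the filter of 10 CPM and -0.066 to 0.128 with 1 library left out, and Ccng2 was -0.258 to 0.0213 with 1 library left out. The cause was not tested. Depth limits Bbc3 most, with 81 counts in 1 library. Most small counts were even, which may count read ends singly, and halved counts called 3653 genes.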
